A study of Apis mellifera with 8 samples.

Results

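The genes described here are those placed under the gene ontology term mitochondrial gene expression in the supplementary list of genes higher in queen than in worker larval heads. They were selected on measured values of these same 8 libraries, so the difference between the castes that runs through them was built in by the choice and is given as a description, with no test. The term holds 51 gene IDs. Of these, 50 had a transcript in the deposited files, out of 9161 genes that could be paired with a transcript, and all 50 passed the filter on low counts, as did 8151 genes in all. The remaining ID, LOC411482, had no paired transcript and was not analysed. The terms were assigned through fruit fly orthologs, and only 1 of the 50 genes has a symbol of its own in the bee annotation, Kr-h1. The other 49 carry LOC numbers, and they are described by the terms they share.

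Mitochondria keep a small genome of their own, and its messages are made and translated inside the organelle by a dedicated apparatus. Nearly all parts of that apparatus are encoded in the nucleus and imported: the ribosomal proteins of the mitochondrial ribosome, initiation and elongation factors, the synthetases that charge tRNAs, the enzymes that trim and modify tRNAs and rRNAs, and regulators of transcript stability. The proteins made this way are core subunits of the respiratory chain. Queen-destined honey bee larvae are known to grow faster than worker-destined larvae and to respire more.

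Heads of individual honey bee (Apis mellifera) female larvae were compared between queens (96hQ) and workers (96hW), both collected 96 h after hatching, with 4 heads in each caste and 1 library per head. Queen larvae were moved into queen cups and fed royal jelly, whereas worker larvae stayed in the frames of a hive, so that caste, diet and rearing place cannot be told apart. No allele, transgene or drug was used, and the strain is not given in the labels. A larval head holds brain, epidermis, glands, muscle and some fat body, and in such a mixture a change in the number of cells of one type and a change in the RNA of each cell cannot be told apart.

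Estimated counts summed to between 22057972 and 23344818 in the 96hQ libraries and between 19139730 and 21848474 in the 96hW libraries. Paired transcripts held between 80.6% and 81.0% of these in 96hQ and between 78.1% and 80.6% in 96hW. Summed levels of genes typical of tissues in the head differed between the libraries. Cuticle protein genes (21 genes) summed to between 73868 and 140193 TPM in 96hQ, with the highest value in replicate 3, and to between 22111 and 39784 TPM in 96hW. Of them 5 were higher in 96hQ at an adjusted p under 0.01 from edgeR and 0 lower. Among all genes tested, 5.21% were higher and 3.4% lower at that limit. The log2 fold change was positive in 16 of the 21 cuticle genes and ran from -2.6 to 7.0. Storage and yolk protein genes of the fat body (6 genes) summed to between 7778 and 19027 TPM in 96hQ. In 96hW they summed to 7623 TPM in replicate 1 and to between 53421 and 62769 TPM in the other heads. None of these was higher in 96hQ and 2 were lower. Neuronal genes (21 genes) summed to between 120.5 and 172.3 TPM in 96hQ, below the range of 232.7 to 289.2 TPM in 96hW, with 4 lower and 0 higher in 96hQ. Muscle genes (7 genes) overlapped, at 2864 to 6394 TPM in 96hQ and 4005 to 7458 TPM in 96hW, and 0 passed. Of the markers Apd-1 was at 0 in 3 heads, and Apd-3, TpnCIIIa and TpnCIIIb in 1 head each. The part of these tissues in the values below was not tested.

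The mitochondrial gene expression genes formed a narrow band of small differences. In normalized counts, which are TMM-scaled counts at the mean library total, the 4 queen heads were each above the highest worker head in 50 of 50 genes. Among all genes tested the same was true of 17.2%. The log2 fold change of 96hQ over 96hW was positive in all 50, and in 50.7% of all genes. Its median was 0.43, a fold of 1.35, with quartiles at 0.38 and 0.51 and a whole range of 0.28 to 1.91. The median over all genes tested was 0.01. By size, 42 genes differed by less than 1.5-fold, 6 by between 1.5- and 2-fold and 2 by more than 2-fold. The gap between castes was small too: the lowest queen head was 1.06 to 2.2 times the highest worker head, and 1.17 times in the median gene.

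In edgeR's quasi-likelihood test with a limit of 0.01 on the adjusted p, 41 of the 50 were higher in 96hQ, 0 were lower and 9 did not pass. Of all genes tested, 5.21% were higher and 3.4% lower in 96hQ. Since these libraries chose the genes, nothing is read from that count. With 1 head left out the count fell to 27, 19, 32 and 16 without 96hQ replicates 1 to 4. It fell to 19, 14, 9 and 13 without 96hW replicates 1 to 4. Over all genes 702 passed in either direction with all heads. That number was 471, 362, 774 and 243 without 96hQ replicates 1 to 4, and 403, 188, 142 and 180 without 96hW replicates 1 to 4. With limma on log2(TPM + 1) the count of the set fell to 5 of 50, and 234 of all genes passed. The share of all calls that were higher in 96hQ was 38.0% on that scale and 60.5% on counts.

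**Figure D1:**
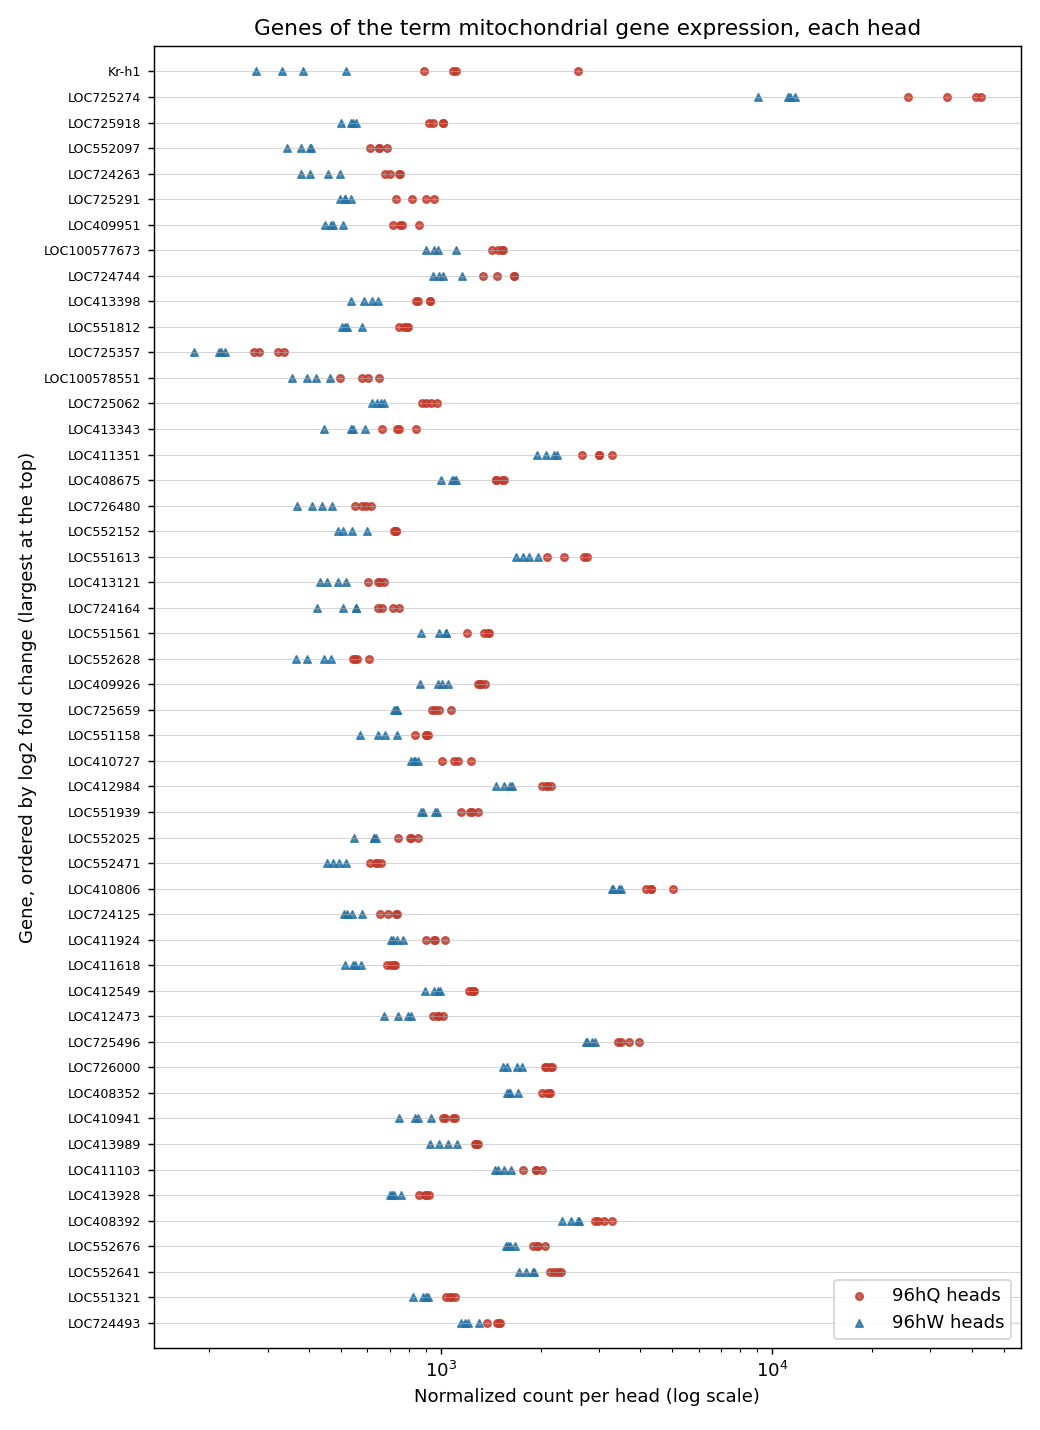
Normalized counts (log axis) of the 50 genes in each head, 1 line per gene ordered by log2 fold change, with 96hQ heads as circles and 96hW heads as triangles. In every line the 4 circles lie to the right of the 4 triangles, most often by a small gap, and LOC725274 sits far to the right of the other genes.

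Genes of mitochondrial translation made up most of the set. Of the 51 IDs, 45 are also listed under that term and 44 of those were measured. Leaving out Kr-h1, the other 43 had log2 fold changes between 0.28 and 0.87 with a median of 0.43, and 35 passed. None of the 43 reached a 2-fold difference. Their TPM summed to 4275, 4747, 3763 and 4473 in 96hQ and to 3627, 3567, 3517 and 3354 in 96hW. Each queen head was above each worker head, and the lowest queen head was replicate 3.

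LOC725918 had the largest difference of these 43 genes. It had 919, 946, 1015 and 1012 normalized counts in 96hQ and 501, 555, 536 and 545 in 96hW. The heads of each caste were close to each other and far from the other caste, with a log2 fold change of 0.87 (SE 0.06, n = 4 and 4), or 1.82-fold. LOC552097 had 652, 613, 687 and 651 normalized counts in 96hQ and 343, 407, 378 and 404 in 96hW (log2 fold change 0.77, SE 0.08). LOC724263 had 746, 702, 751 and 680 in 96hQ and 495, 379, 457 and 404 in 96hW (log2 fold change 0.73, SE 0.09). In that gene 96hW replicate 1 was the highest worker head, unlike in most of the set. LOC725291 had 956, 730, 900 and 818 normalized counts in 96hQ and 537, 515, 497 and 513 in 96hW (log2 fold change 0.72, SE 0.09). Here the queen heads were spread more widely (CV 11.6%) than the worker heads (CV 3.18%).

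Across genes, levels can be compared only per length, in TPM. LOC724744 was the most abundant of the translation genes, at 248, 230, 217 and 239 TPM in 96hQ and 176, 174, 172 and 186 TPM in 96hW. The castes did not overlap on this scale either. In normalized counts its log2 fold change was 0.58 (SE 0.09). LOC552641 came next, at 185, 199, 157 and 182 TPM in 96hQ and 186, 156, 164 and 160 TPM in 96hW. On TPM its castes overlapped, with 96hW replicate 1 above queen replicates 1, 3 and 4. In normalized counts it had 2308, 2192, 2257 and 2141 in 96hQ and 1894, 1723, 1801 and 1904 in 96hW (log2 fold change 0.28, SE 0.05). The shortest transcript of the set belongs to LOC100578551 (408 bases), which had 602, 496, 579 and 650 normalized counts in 96hQ and 421, 394, 461 and 354 in 96hW. Its log2 fold change was 0.51 (SE 0.11), with a spread among the widest of the set in both castes, and the gene did not pass.

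The tightest genes of the set were also translation genes. LOC412549 had 1219, 1250, 1243 and 1256 normalized counts in 96hQ and 897, 993, 981 and 956 in 96hW (log2 fold change 0.38, SE 0.05). LOC408352 had 2137, 2091, 2123 and 2018 in 96hQ and 1584, 1708, 1613 and 1611 in 96hW (log2 fold change 0.36, SE 0.05). In both genes the queen heads differed from each other by a few percent, less than the distance to the nearest worker head. LOC552676 had 1968, 1946, 2066 and 1903 normalized counts in 96hQ and 1576, 1669, 1591 and 1622 in 96hW (log2 fold change 0.29, SE 0.05), one of the smallest in the set. A 1.22-fold difference thus left no overlap in normalized counts, whereas on TPM the castes overlapped.

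The 4 smallest fold changes belonged to LOC724493, LOC551321, LOC552641 and LOC552676, all under the mitochondrial translation term. LOC551321 had 1071, 1102, 1063 and 1039 normalized counts in 96hQ and 904, 912, 881 and 825 in 96hW (log2 fold change 0.28, SE 0.05). LOC724493 had 1507, 1473, 1501 and 1376 in 96hQ and 1151, 1179, 1208 and 1302 in 96hW (log2 fold change 0.28, SE 0.06). Its lowest queen head was 1.06 times its highest worker head, the smallest gap of the 50 genes together with LOC551613.

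The genes nearest the threshold of 0.01 differed in size. Just inside it lay Kr-h1, the gene with the largest fold and the widest spread, described below, and LOC551158, with 914, 903, 903 and 833 normalized counts in 96hQ and 569, 680, 648 and 738 in 96hW (log2 fold change 0.43, SE 0.08). Just outside it lay LOC552628, with 559, 552, 609 and 543 in 96hQ and 366, 466, 393 and 444 in 96hW (log2 fold change 0.44, SE 0.09), and LOC724493. The folds were 3.75 (Kr-h1) and 1.35 (LOC551158) inside, and 1.35 (LOC552628) and 1.21 (LOC724493) outside. None of these 4 overlapped between castes in normalized counts.

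Transfer RNAs of mitochondria are cut from long transcripts, modified, and charged with amino acids by synthetases before they can be used. Of the 51 IDs, 9 are also listed under tRNA metabolic process, 4 of them inside the mitochondrial translation term and 5 outside it. The 9 had a median log2 fold change of 0.44, and 6 passed. The 4 inside that term (LOC410806, LOC552025, LOC408392 and LOC551613) had a median of 0.40 with 2 passing, and the 5 outside had a median of 0.56 with 4 passing.

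LOC725274, from the tRNA genes outside mitochondrial translation, stood apart from every other gene of the set in level. It had 25731, 41254, 42714 and 33717 normalized counts in 96hQ and 9070, 11176, 11710 and 11334 in 96hW (log2 fold change 1.73, SE 0.17), or 3.31-fold. The lowest queen head was 2.2 times the highest worker head, the widest gap of the set. In TPM it had 1344, 2414, 1928 and 1850 in 96hQ, against 575, 654, 686 and 614 in 96hW. This 1 gene made up 22.3%, 31.5%, 31.6% and 27.2% of the summed TPM of the 50 genes in the queen heads and 12.6%, 14.3%, 15.1% and 14.3% in the worker heads. Replicate 1 was the lowest head in both castes. The other 49 genes summed to 4768 ± 454 TPM in 96hQ and 3854 ± 131 TPM in 96hW (SD, n = 4 each), against 6652 ± 759 TPM in 96hQ and 4486 ± 136 TPM in 96hW (SD, n = 4 each) with LOC725274 included.

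**Figure D2:**
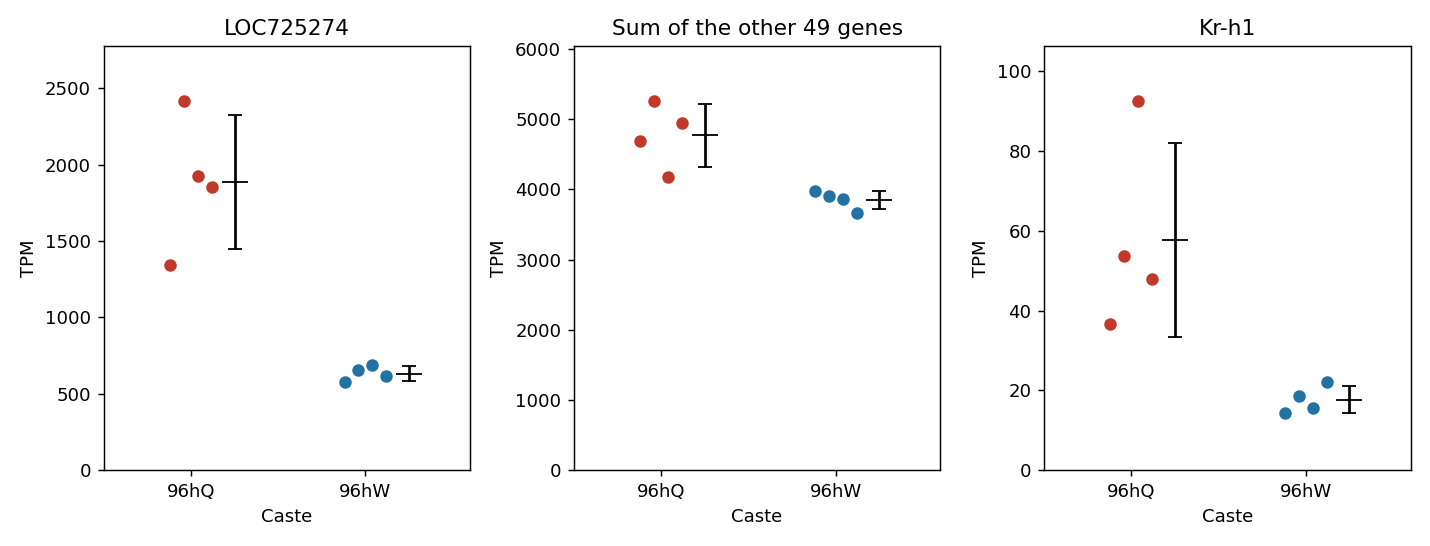
TPM of LOC725274, of the other 49 genes summed, and of Kr-h1, with 1 point per head and the mean ± SD of 4 heads beside them; 96hQ is left of 96hW and the axes start at 0. In each panel the 4 queen heads lie above the 4 worker heads, and the queen heads are spread more widely.

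The other 4 tRNA genes outside mitochondrial translation were of ordinary size. LOC100577673 had 1540, 1491, 1429 and 1526 normalized counts in 96hQ and 903, 984, 1112 and 956 in 96hW (log2 fold change 0.60, SE 0.07). LOC551812, the least abundant gene of the set at 37.2 ± 4.91 TPM in 96hQ and 28.0 ± 0.679 TPM in 96hW (SD, n = 4 each), had 774, 792, 748 and 796 normalized counts in 96hQ and 502, 515, 522 and 577 in 96hW. Its log2 fold change was 0.56 (SE 0.06). This gene is listed under RNA modification as well, and the enzymes of that class alter bases after a transcript is made. LOC551561 had 1196, 1400, 1348 and 1391 normalized counts in 96hQ and 873, 1037, 986 and 1035 in 96hW (log2 fold change 0.44, SE 0.08), with replicate 1 lowest in both castes. LOC410941, also under RNA modification, did not pass: it had 1030, 1018, 1105 and 1088 in 96hQ and 933, 835, 853 and 747 in 96hW (log2 fold change 0.33, SE 0.07). Its highest worker head was replicate 1, and on TPM that head (38.5 TPM) lay above 2 of the queen heads (35.1, 38.7, 32.5 and 38.8 TPM).

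Of the tRNA genes inside mitochondrial translation, LOC552025 had the lowest level, at 742, 806, 811 and 854 normalized counts in 96hQ and 547, 627, 636 and 626 in 96hW (log2 fold change 0.40, SE 0.07). Worker heads 2, 3 and 4 were nearly equal, and replicate 1 lay below them. LOC410806, LOC408392 and LOC551613 fall outside the rule for genes to be named and were chosen after their values were seen. LOC408392 has the longest transcript of the set (2905 bases) and one of its small differences, averaging 3069 ± 155 (SD, n = 4) normalized counts in 96hQ, against 2503 ± 134 (SD, n = 4) in 96hW. LOC551613 is the only member also listed under electron transport chain. It had 2090, 2762, 2696 and 2358 normalized counts in 96hQ and 1682, 1969, 1766 and 1844 in 96hW (log2 fold change 0.45, SE 0.10). Its lowest queen head stood close above its highest worker head.

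Mitochondrial ribosomes are built on rRNA that must be processed and modified. Of the set, 4 genes (LOC409951, LOC724125, LOC724493 and LOC725496) are also listed under ribosome biogenesis, with a median log2 fold change of 0.38 and 3 passing. LOC725496, listed also with RNA modification and with translation at large but not with mitochondrial translation, was the most abundant of them, at 154 ± 26.0 TPM in 96hQ and 132 ± 8.45 TPM in 96hW (SD, n = 4 each). In normalized counts it had 3497, 3959, 3413 and 3709 in 96hQ and 2738, 2863, 2909 and 2766 in 96hW (log2 fold change 0.37, SE 0.06). The largest difference of this group was in LOC409951, named here after its values were seen, with 753, 762, 859 and 719 in 96hQ and 472, 466, 446 and 505 in 96hW (log2 fold change 0.71, SE 0.07). The RNA modification genes (LOC551812, LOC410941, LOC725496 and LOC724493) had a median log2 fold change of 0.35, and 2 of the 4 passed.

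Kr-h1 (Krüppel homolog 1) is a zinc finger transcription factor induced by juvenile hormone that holds insects in a larval state, and it is not known as a part of mitochondria. Its gene ID is nevertheless listed under the term and under mitochondrial translation, so it is kept as a member and given apart. It had 888, 1107, 2588 and 1084 normalized counts in 96hQ and 276, 384, 331 and 518 in 96hW (log2 fold change 1.91, SE 0.37), or 3.75-fold. The castes did not overlap, but 96hQ replicate 3 was more than 2 times as high as any other queen head. Its CV of 55.5% in 96hQ and 27.5% in 96hW was the highest of the set in each caste, so the largest fold was also the least precise, and the gene passed just inside the threshold. Without Kr-h1 the median of the remaining 49 stayed at 0.43, and 40 of 49 passed.

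In normalized counts, the level of the set within a caste differed little from head to head, except in 1 worker head. Each head was set against the mean of its own caste, which takes the difference between castes out. The median gene lay at 0.00, 0.00, 0.02 and -0.02 (log2) in 96hQ replicates 1 to 4. In 96hW it lay at -0.09, 0.04, -0.01 and 0.05. Of the 50 genes, 34 were lowest among the worker heads in replicate 1, and 3, 8 and 5 were lowest in replicates 2, 3 and 4. Over all genes tested, 33.6% were lowest in 96hW replicate 1, and its median deviation was 0.00. In the queen heads the lowest genes were spread as 13, 11, 10 and 16. On TPM the order was different, and 96hW replicate 1 was not low. Without LOC725274 the other 49 genes summed to 3972, 3907, 3868 and 3668 TPM in 96hW replicates 1 to 4. In 96hQ replicates 1 to 4 they summed to 4695, 5255, 4181 and 4941 TPM. 96hW replicate 1 is the worker head with little fat body storage transcript (7623 TPM). It also had the fewest counts of all libraries (19139730) and the lowest paired share (78.1%). Its sums of neuronal (289.2 TPM) and muscle genes (7458 TPM) were the highest of the worker heads. The fat body genes were at 7778 TPM in 96hQ replicate 1, where the median gene lay at 0.00. Whether any of these bears on the low values was not tested. Without 96hW replicate 1 the median log2 fold change of the set was 0.39, and 19 passed.

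**Figure D3:**
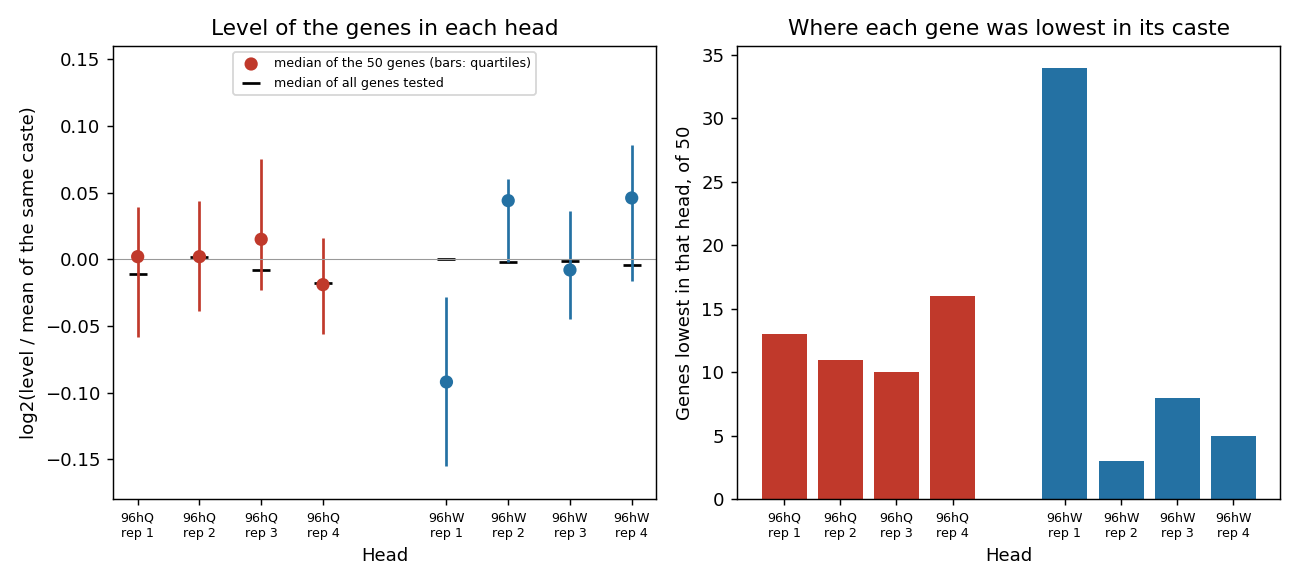
Left, the median log2 normalized count of the 50 genes in each head relative to the mean of its caste. Points are medians, bars are quartiles over genes, and dashes are the median of all genes tested. Right, the number of the 50 genes that were lowest in that head among the heads of its caste. 96hW replicate 1 lies at -0.09 and holds 34 of the 50 lowest values, and the queen heads lie near 0.

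Relative to the mean of all 8 heads, again in normalized counts, the median gene lay at 0.19, 0.20, 0.20 and 0.19 (log2) in the queen heads. In the worker heads it lay at -0.32, -0.19, -0.23 and -0.22. The queen heads were thus nearly level on this measure, and the worker heads were farther apart, with replicate 1 the lowest. Over the genes the median CV was 4.79% in 96hQ and 6.17% in 96hW, and 4.84% in 96hW without replicate 1. Over all genes tested it was 12.8% in 96hQ and 9.14% in 96hW, and 6.87% in 96hW without replicate 1. Over the 5847 genes with a mean normalized count within the range of the set, it was 9.51% in 96hQ and 7.0% in 96hW. The CV in 96hQ was above that in 96hW in 19 of the 50 genes, against 66.2% of all genes. A low spread makes it easier for a gene to be selected by a test on these libraries, so the low CV of the set was in part fixed by the choice.

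The difference between castes in this set depended on the scale. TPM are shares of all transcripts in a library, so a more abundant class leaves a smaller share for every other gene. On TPM the castes did not overlap in 19 of the 50 genes, against 5.09% of all genes. The head that closed the gap was 96hQ replicate 3, the one with 140193 TPM of cuticle protein transcripts: 44 of the 50 genes had their lowest queen TPM there. The part of cuticle transcripts in this was not tested. With that head left out 44 of 50 did not overlap on TPM, and with any other single head left out between 19 and 22 did not. Leaving out a head can only keep or raise such a number in any list of genes. The share over all genes was not computed with a head left out, so nothing about the set is read from these counts. The fold changes on TPM were positive in all 50, with a median log2 difference of 0.27 on the log2(TPM + 1) scale. Over all genes the same median was -0.14, so the TPM scale moved the middle of all genes below 0 as well.

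The set was made of moderately abundant genes with short transcripts. Mean TPM ran from 32.6 to 1258 with a median of 83.4, against a median of 27.2 for all genes tested. In rank the 50 genes lay between percentiles 56.8 and 98.3 of all genes, with a median of 82.5. Of the 50, 33 had between 10 and 100 TPM and 17 had more than 100. The median transcript length was 986 bases (408 to 2905), against 1948 bases over all genes. Over all genes tested the fold change fell with length (Spearman's rho across genes -0.24, and -0.36 across the 50). Genes are not independent replicates here, since they share libraries and length-dependent processing. The part of length in the fold changes of the set was not tested. Fragments were also shorter in 2 of the queen libraries, with a mean length of 170, 187, 176 and 189 bases in 96hQ and 187, 186, 193 and 190 bases in 96hW as estimated from the effective lengths in the files. With effective length as an offset, a setting chosen after seeing the data, the median log2 fold change of the set was 0.42. A smooth trend on length had a median of 0.11 at the lengths of the set. It was fitted without the genes under the 30 terms of the queen list, which can lower the trend. Of the 7887 genes tested outside those terms, 225 were called higher in 96hQ and 277 lower. With the trend subtracted, all 50 fold changes stayed positive, from 0.17 upwards, with a median of 0.34. The 50 were chosen as higher in 96hQ, so this sign was in part set by the choice. Against mean TPM the fold change had a Spearman's rho of -0.04 across the 50.

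**Figure D4:**
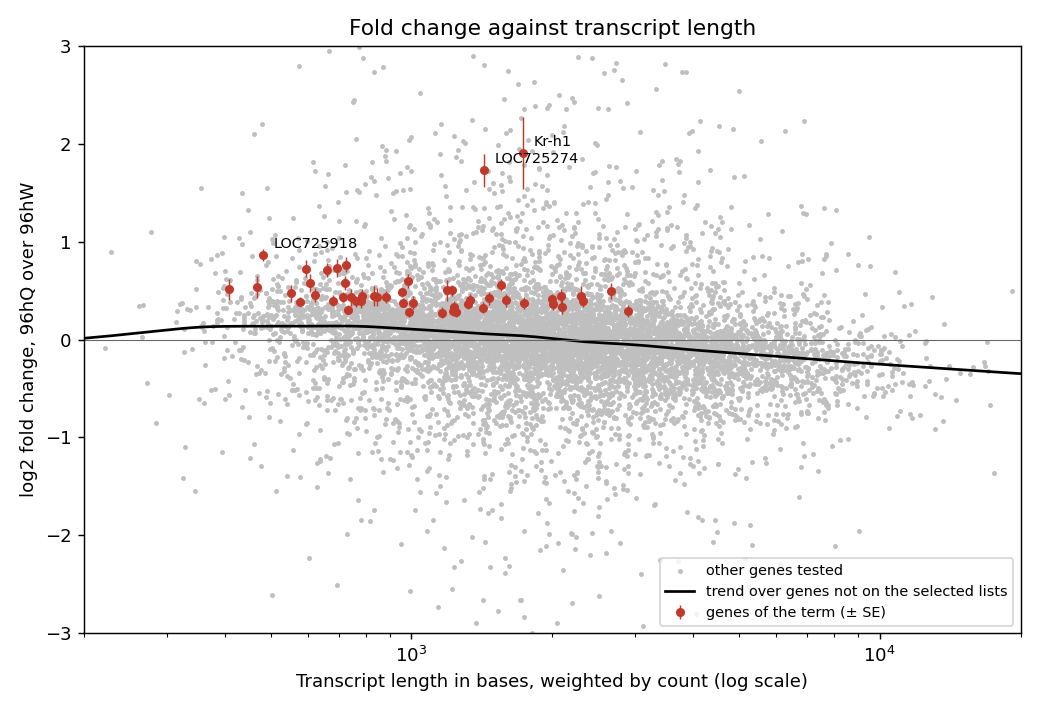
log2 fold change of 96hQ over 96hW against transcript length (log axis) for the genes of the set (large points, ± SE) and all other genes tested (small points), with the trend on length as a line; genes beyond the axis limits are not drawn. The set lies at short to middling lengths and above the trend line at every length, with LOC725274 and Kr-h1 far above it.

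Most of the genes were measured by a single transcript. In 39 of the 50 there was 1 paired transcript, and in 11 there were several, whose shares depend on how reads were divided among similar sequences. LOC410806 had 4. Its transcript XM_006568697 made up 16.9% ± 3.22 of the TPM of the gene in 96hQ and 12.2% ± 1.6 in 96hW (SD, n = 4 each), with a log2 fold change of 0.90 (SE 0.14). The main transcript, XM_006568698, made up 47.5% ± 1.86 in 96hQ and 52.9% ± 4.76 in 96hW (SD, n = 4 each), with a log2 fold change of 0.29 (SE 0.11). All 4 transcripts of this gene were higher in the mean queen head, by different amounts. In LOC724493 the minor transcript XM_006563636 made up 9.99% ± 0.39 in 96hQ and 12.8% ± 1.68 in 96hW (SD, n = 4 each), with a log2 fold change of -0.04 (SE 0.16), while the major transcript XM_001120018 had 0.36 (SE 0.07). In LOC411618, named after its values were seen, XM_006561978 had a log2 fold change of -0.31 (SE 0.41) beside 0.52 (SE 0.09) for the main transcript XM_395088. These were the only 2 transcripts of the set with a negative value, and both lay within 1 SE of 0. Of the Kr-h1 transcripts, NM_001242470 held most of the TPM, with means of 52.5 TPM in 96hQ and 14.8 TPM in 96hW and a log2 fold change of 2.05 (SE 0.45). The other, NM_001011566, had 0.94 (SE 1.70).

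Other lists chosen on these libraries are given beside the set, with the genes of the set left out of them. Genes of ribosome biogenesis (53 measured) had a median log2 fold change of 0.46 with 42 higher in 96hQ, genes of oxidative phosphorylation (21) 0.37 with 18 higher, and genes of protein targeting to mitochondrion (12) 0.62 with 11 higher. In each of these the castes did not overlap in any gene, and 0 genes were lower. A list of oxidative phosphorylation genes found by symbol rather than by these libraries had 9 measured genes, with a median log2 fold change of 0.25 in normalized counts and 0.05 on the TPM scale. Only CytC (cytochrome c, the soluble electron carrier) passed among these 9, with a log2 fold change of 1.29, and the castes did not overlap in 5. The list by symbol was not kept apart from the selected oxidative phosphorylation list, whose largest log2 fold change was also 1.29. Whether these lists differ from the set was not tested.

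The genes of the set are scattered in the genome. A member lies on each of 16 linkage groups, with 11 on linkage group 1, and 1 pair of members, LOC413928 and LOC552471, are neighbours.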

How the data were processed

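Poly(A) RNA of 8 larval heads was made into stranded libraries and read from both ends. The authors assigned reads to transcripts with kallisto (version not given in the sources used here), and the deposited estimated counts and TPM are its output for 28739 RefSeq transcripts, with no normalization between libraries. The deposited lengths and effective lengths (other columns) gave transcript and fragment length. RefSeq accessions stand in the files although the methods point to Ensembl Metazoa. The study's own test, sleuth, was not used here.

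Transcripts were paired by accession root with a reference table (Amel_HAv3.1, names and gene order only): 17723 of 28739 (61.7%) with 9161 genes, 1449 at the same version. Counts were summed per gene, rounded and fitted over all genes with edgeR 4.0.16 in R 4.3.3: TMM, at least 5 counts in at least 4 of 8 libraries, a quasi-likelihood F test of caste with no other term, Benjamini-Hochberg adjustment, threshold 0.01. SE is the log2 fold change divided by the root of F. DESeq2 1.42.0 and limma 3.58.1 were alternatives. The length trend is a loess fit (span 0.5). The script was tested on simulated data, with the spread of each gene taken from the trend over all genes. Of 50 changed genes at each fold, 5 were recovered at 1.5-fold, 26 at 2-fold, 43 at 3-fold and 44 at 4-fold. Among 8100 genes tested, 1 unchanged gene was called. Each library is 1 head, so p-values hold the spread between animals and preparation. Depth is given with the data, and the error of dividing reads among transcripts was not measured.

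Named genes were those of highest and lowest TPM, largest and smallest fold change and CV, next to the threshold, outside the mitochondrial translation term, or with a symbol. Members and lists were chosen with earlier results of these data known. Lists by product name, sequences and motifs were not used here, and the symbol lists for mitochondrial ribosomal proteins and transcription found 0 genes. The chromatin and methylation data were not analysed here.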

Additional observations from a re-analysis of the deposited data

Results flagged for a closer look

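In 50 groups of 4 heads tested, 4 had 1 head far from the others by Dixon's gap test, where chance alone gives about 1 in 20. These groups are not the 50 genes, and they did not cover every gene in both castes. They held genes named for their values, such as a wide spread, so the 1 in 20 is only a rough guide. LOC552025 was at 546.7 normalized counts in 96hW replicate 1, below the other worker heads at 626.3 to 636.0. Kr-h1 was at 2588.2 normalized counts in 96hQ replicate 3, above the other queen heads at 888.3 to 1107.3. LOC551158 was at 833.0 normalized counts in 96hQ replicate 4, below the other queen heads at 903.0 to 913.8. The summed TPM of the 50 genes was 4282.1 in 96hW replicate 4, below the other worker heads at 4546.6 to 4560.2. The causes were not tested.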

How the results depend on the processing

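All 50 genes had a positive log2 fold change in each of the 21 settings counted. The same-version setting covers only 12 of the genes. The number passing stayed between 34 and 50 with other size factors, DESeq2, other filters, unrounded counts and an effective-length offset (40, chosen after seeing the data, as was leaving out Kr-h1). It was 5 with limma on log2(TPM + 1) and on log2(TPM + 0.1), 25 with the most abundant transcript only, and 6 of the 12 genes that have a transcript of the same version. With 1 head left out it ranged from 9 to 32. Over all genes 702 passed, against 1900 with DESeq2, 234 and 227 on the 2 TPM scales, 455 with the most abundant transcript, 63 of 962 with the same version, and 142 to 774 with 1 head left out.

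The median log2 fold change was 0.27 on both TPM scales (0.266 and 0.268), 0.356 with the same version only, 0.341 with the length trend subtracted, and 0.388 to 0.449 with 1 head left out. The number of genes with no overlap between castes was 19 on TPM and 48 with the most abundant transcript only. Leaving out a head can only keep or raise this number, so the 50 with any head left out was fixed by the 50 with all heads. For the 22 named genes, 444 alternatives gave 0 reversals, with 135 no longer passing, 4 newly passing and 3 values moved by the length trend. Subtracting the length trend gives values and no test.

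With the replicate number as a block, 1 of the 50 and 10 of all genes passed. The deviations of heads with the same number correlated at 0.09, 0.02, -0.03 and -0.06. These values cannot settle whether such heads shared a colony, day or preparation, and the labels do not say. The cause of each change was not tested. The count over all genes did not only fall. It was 774 of 8105 without 96hQ replicate 3, and 751 of 7111 with at least 20 counts in all 8 libraries. The lowest value of any of the genes in a head was 179.4 normalized counts (LOC725357, 96hW replicate 1).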
